A study of Mus musculus with 40 samples.

Results

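Neurl3 and Fcamr are 2 genes out of the 55359 mouse genes listed in the kidney count files, and out of the 17345 with enough counts to be tested. Both were selected on their measured CPM (read counts scaled by library size) in these same libraries, because the values moved with the dose of TCDD over the 8 dose groups, Neurl3 upwards and Fcamr downwards, in a way described as steady and as starting at low doses. No numerical threshold was part of that choice. The levels by dose are therefore given below as a description and carry no test. The data bear out the description only in part: Neurl3 stood level with vehicle up to 0.1 µg/kg, and Fcamr was below vehicle but flat from 0.03 to 0.3 µg/kg. The Fcamr difference at the lowest dose was -0.39 on the log2 scale, and -0.27 without 2 vehicle libraries that stood apart.

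TCDD, a chlorinated dioxin, binds the aryl hydrocarbon receptor, a transcription factor that moves to the nucleus, pairs with ARNT and binds DNA elements with the core letters GCGTG, as at the gene of the cytochrome P450 Cyp1a1. Neurl3 belongs to the neuralized proteins, E3 ubiquitin ligases named after the fly protein that ubiquitinates Notch ligands, and it is known as a gene that inflammatory stimuli induce in epithelium. Fcamr encodes the Fc alpha/mu receptor, a membrane protein that binds IgA and IgM and that is related to the polymeric immunoglobulin receptor Pigr and to the IgM receptor Fcmr.

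RNA was sequenced from the right kidneys of 40 male C57BL/6NCrl mice, 5 to a group. All mice were dosed by oral gavage every 4 days for 28 days, with 7 administrations from an age of 30 days, and were killed at 58 days. The vehicle group received sesame oil, and the other 7 groups received TCDD in that oil at 0.03, 0.1, 0.3, 1, 3, 10 or 30 µg/kg. The labels describe no transgene, and every library is 1 kidney of a separate mouse, so the spread within a group is that between mice.

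The libraries held between 15278423 and 25575317 gene counts. Proximal tubule genes dominated the kidney markers in each library, with a summed level of 12 segment S1-S2 genes between 12008 and 20530 CPM, and Umod of the thick ascending limb (964 ± 374 CPM, SD, n = 5, in vehicle) was detected, as the kidney label requires. Vehicle replicates 1 and 2 stood apart from the other vehicle libraries, with S1-S2 sums of 20067 and 20530 CPM against 15591 to 16248 CPM, and S3 segment sums of 1941 and 2150 CPM against 4041 to 4647 CPM. The 30 µg/kg group was similarly uneven, with S3 sums between 631 and 3296 CPM. Mitochondrial genes took 7.31 to 11.3% of gene counts, with ranges that overlapped between all dose groups.

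The promoter windows of both genes are shown first, because the results compare a gene that went up and a gene that went down with a ligand of this receptor: Neurl3 carries 1 copy of its core letters in this window and Fcamr carries none. Each window holds 250 bases before and 50 bases after the annotated transcription start, 5′ to 3′ on the gene's own strand, from RefSeq's annotation of GRCm38.p6. GCGTG is in capitals. That of Neurl3 lies on the minus strand of chromosome 1, at chr1:36273376-36273675. That of Fcamr lies on the plus strand at chr1:130800652-130800951, and that of Cyp1a1, shown as the reference target gene, on the plus strand at chr9:57697363-57697662.
Neurl3: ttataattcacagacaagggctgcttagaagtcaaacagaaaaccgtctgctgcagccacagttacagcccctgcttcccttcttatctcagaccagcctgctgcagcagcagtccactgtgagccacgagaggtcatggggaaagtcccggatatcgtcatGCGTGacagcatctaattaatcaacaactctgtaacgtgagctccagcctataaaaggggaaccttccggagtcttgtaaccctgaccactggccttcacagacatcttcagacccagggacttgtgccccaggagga
Fcamr: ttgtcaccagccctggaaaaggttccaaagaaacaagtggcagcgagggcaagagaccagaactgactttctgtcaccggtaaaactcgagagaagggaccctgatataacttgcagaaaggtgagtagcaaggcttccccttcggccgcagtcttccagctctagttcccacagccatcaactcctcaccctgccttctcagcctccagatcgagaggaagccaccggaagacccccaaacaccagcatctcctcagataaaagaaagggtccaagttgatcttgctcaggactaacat
Cyp1a1: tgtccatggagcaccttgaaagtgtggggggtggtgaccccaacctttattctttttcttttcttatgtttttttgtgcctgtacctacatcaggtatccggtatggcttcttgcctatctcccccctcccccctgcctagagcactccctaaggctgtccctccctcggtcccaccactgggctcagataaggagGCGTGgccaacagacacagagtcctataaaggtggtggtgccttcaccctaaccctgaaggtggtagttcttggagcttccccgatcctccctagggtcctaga

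In the Neurl3 window GCGTG starts at position -88 from the transcription start, and TATAAA at position -39. In the Cyp1a1 window GCGTG starts at position -54 and TATAAA at position -30. Neither holds the longer receptor element TNGCGTG. Neither the STAT motif TTCNNNGAA nor the interferon-type motif, GAAA repeated after a gap of 2 bases, occurs in the 3 windows, and TATAAA does not occur in that of Fcamr. Both strands were searched, and TNGCGTG contains GCGTG. Short motifs are common: of 32851 promoter windows of the same length, 32.4% hold GCGTG, 13.6% TATAAA, 8.30% TTCNNNGAA, 5.07% TNGCGTG and 3.44% the interferon-type motif. The share of windows with both GCGTG and TATAAA was not computed, and bases outside the windows were not searched. These matches describe letters in the window and show no binding.

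Neurl3 was a low transcript in vehicle kidneys. The 5 vehicle libraries stood at 5.85, 7.60, 7.99, 8.77 and 8.93 CPM (mean 7.83 ± 1.23, SD, n = 5, as in each group below). At 0.03 µg/kg the libraries stood at 5.56, 6.57, 8.18, 9.79 and 9.80 CPM (7.98 ± 1.90), and at 0.1 µg/kg at 6.94, 7.64, 8.05, 8.89 and 11.9 CPM (8.68 ± 1.93). Both of these groups overlapped the vehicle group, with only 2 and 1 of 5 libraries above every vehicle library.

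From 0.3 µg/kg upwards the Neurl3 ranges left that of vehicle. At 0.3 µg/kg the 5 values were 9.58, 11.4, 12.7, 13.6 and 17.0 CPM (12.9 ± 2.78), and at 1 µg/kg they were 14.3, 16.7, 17.6, 17.8 and 23.1 CPM (17.9 ± 3.19). At 3 µg/kg they drew together at 21.7, 22.3, 25.1, 25.8 and 26.0 CPM (24.2 ± 2.03). All 15 libraries of these 3 groups were above the highest vehicle library, while each group still overlapped the dose below it.

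The Neurl3 level was highest at the top pair of doses, which did not differ beyond their spread. At 10 µg/kg the libraries stood at 26.3, 31.7, 32.6, 33.1 and 37.0 CPM (32.1 ± 3.85), all above every 3 µg/kg library. At 30 µg/kg they stood at 22.6, 29.2, 33.0, 33.0 and 36.6 CPM (30.9 ± 5.30). No other Neurl3 group was clear of the next lower dose in this way, and the step from 10 to 30 µg/kg was -0.07 on the log2 scale (SE 0.14).

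Relative to vehicle, the mean log2 CPM of Neurl3 differed by 0.01 (SE 0.19) at 0.03 µg/kg, 0.14 (SE 0.17) at 0.1 µg/kg and 0.70 (SE 0.17) at 0.3 µg/kg. It differed by 1.18 (SE 0.15) at 1 µg/kg, 1.62 (SE 0.12) at 3 µg/kg, 2.03 (SE 0.13) at 10 µg/kg and 1.96 (SE 0.16) at 30 µg/kg. The steps between 0.1 and 10 µg/kg were of like size, 0.56, 0.48, 0.44 and 0.40 on the log2 scale for successive doses. The gene thus rose in near-equal steps over the middle doses and was flat at either end, reaching 4.08 times the vehicle level at 10 µg/kg.

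Fcamr started from a level of 30.8, 33.2, 35.7, 40.4 and 41.1 CPM in the vehicle libraries (36.3 ± 4.47). At 0.03 µg/kg the values were 21.4, 25.7, 30.4, 30.8 and 30.9 CPM (27.8 ± 4.21), at 0.1 µg/kg 22.9, 25.9, 30.5, 31.4 and 31.6 CPM (28.5 ± 3.87), and at 0.3 µg/kg 26.1, 27.8, 28.2, 28.6 and 29.9 CPM (28.1 ± 1.39). These 3 groups did not differ from each other beyond their spread. At 0.03 and 0.1 µg/kg 3 of 5 libraries were below every vehicle library, and at 0.3 µg/kg all 5 were.

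At the higher doses Fcamr went down further in small steps. At 1 µg/kg the libraries held 24.4, 25.5, 25.7, 27.1 and 30.4 CPM (26.6 ± 2.35), and at 3 µg/kg 19.9, 21.0, 23.1, 24.1 and 26.2 CPM (22.9 ± 2.50). At 10 µg/kg they held 16.4, 19.7, 20.3, 20.5 and 24.8 CPM (20.4 ± 2.99). Every neighbouring pair of doses overlapped, and all 15 libraries were below the lowest vehicle library.

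The 30 µg/kg libraries held 15.2, 15.2, 16.7, 17.5 and 27.8 CPM of Fcamr (18.5 ± 5.32). One mouse, replicate 2, stood well above the others. Without it the mean was 16.1 ± 1.16 CPM (n = 4). That library also had the highest Neurl3 value of its group, 36.6 CPM, and an S1-S2 marker sum of 19629 CPM, and the part of the marker level in its Fcamr value was not tested.

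Fcamr differed from vehicle by -0.39 (SE 0.13) at 0.03 µg/kg, -0.35 (SE 0.12) at 0.1 µg/kg and -0.36 (SE 0.09) at 0.3 µg/kg on the log2 scale. The differences were -0.44 (SE 0.10) at 1 µg/kg, -0.66 (SE 0.11) at 3 µg/kg, -0.83 (SE 0.12) at 10 µg/kg and -1.0 (SE 0.18) at 30 µg/kg, where the level was 0.50 of that of vehicle. All these differences share the vehicle level. The highest Fcamr values in the series, 41.1 and 40.4 CPM, belonged to the vehicle replicates 1 and 2 that stood apart in tubule markers. With the other 3 vehicle libraries alone (33.2 ± 2.48 CPM), the differences were -0.27, -0.23 and -0.24 at the 3 lowest doses, -0.32 and -0.54 at 1 and 3 µg/kg, and -0.71 and -0.88 at 10 and 30 µg/kg. At 0.03 µg/kg the median log2 change was -0.207 for the S1-S2 markers and 0.614 for the S3 markers, against 0.001 for all genes. The part of the tubule markers in the Fcamr values was not tested. In whole kidney RNA, fewer cells of a type cannot be told apart from less RNA per cell.

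**Figure D1:**
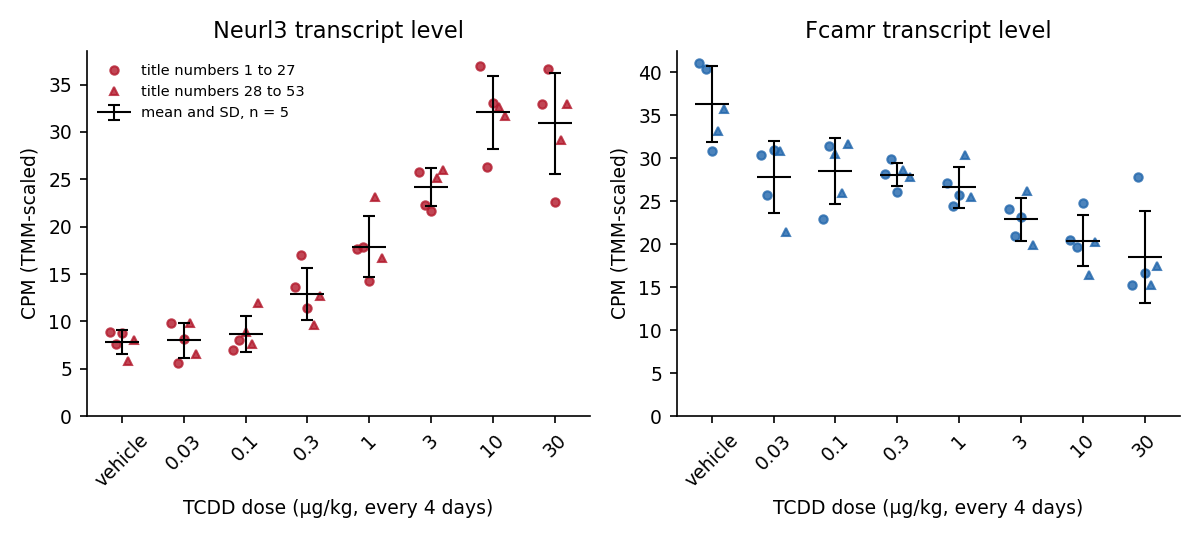
Levels of Neurl3 (left) and Fcamr (right) in CPM by TCDD dose in µg/kg; each point is 1 mouse kidney, symbols give the range of the number in the sample title, and bars are the mean and SD of 5. Neurl3 lies level up to 0.1 µg/kg and levels off between 10 and 30 µg/kg, whereas Fcamr is highest in vehicle, flat from 0.03 to 0.3 µg/kg and lowest at 30 µg/kg with 1 high mouse at 27.8 CPM.

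Ordered by their means, the Neurl3 groups ran from vehicle through each dose in turn to 3 µg/kg, followed by 30 and then 10 µg/kg. The Fcamr groups ran downwards from vehicle through 0.1, 0.3, 0.03, 1, 3 and 10 to 30 µg/kg. Only the order of the 0.03, 0.1 and 0.3 µg/kg groups of Fcamr, and that of the 10 and 30 µg/kg groups of Neurl3, departs from the order of the doses, and none of these groups differed beyond their spread.

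Cyp1a1, the best known target gene of the dioxin receptor, serves as the reference. Its mean level was 2.37 ± 1.25 CPM in vehicle, 2.16 ± 1.07 at 0.03 µg/kg, 5.51 ± 1.11 at 0.1 µg/kg and 24.7 ± 6.37 at 0.3 µg/kg. It reached 99.4 ± 12.1 CPM at 1 µg/kg, 294 ± 58.7 at 3 µg/kg, 1569 ± 147 at 10 µg/kg and 2537 ± 436 at 30 µg/kg. At 0.1 µg/kg 4 of 5 Cyp1a1 libraries were above every vehicle library (log2 difference 1.30, SE 0.35), against 1 of 5 for Neurl3 (0.14, SE 0.17). The lowest of them, at 3.94 CPM, lay just under the highest vehicle value of 4.00 CPM. Cyp1a1 thus stood above vehicle in most mice at a lower dose than Neurl3 did, and at 0.3 µg/kg all libraries of each gene did. Unlike Neurl3, Cyp1a1 was higher at 30 than at 10 µg/kg without overlap.

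Taking the log2 difference at 30 µg/kg as 100%, Neurl3 had reached 0.449% of its own at 0.03 µg/kg, 7.02% at 0.1 µg/kg, 35.7% at 0.3 µg/kg, 60.1% at 1 µg/kg, 82.8% at 3 µg/kg and 103% at 10 µg/kg. Cyp1a1 had reached -0.843, 12.9, 33.8, 54.0, 69.3 and 93.3% at the same doses, of a total log2 difference of 10.13 against 1.96 for Neurl3. Fcamr had reached 38.5% at 0.03 µg/kg, 35.0% at 0.1 µg/kg, 35.9% at 0.3 µg/kg, 44.0% at 1 µg/kg, 66.1% at 3 µg/kg and 83.3% at 10 µg/kg. These shares have no test, and all share the same vehicle and 30 µg/kg libraries.

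**Figure D2:**
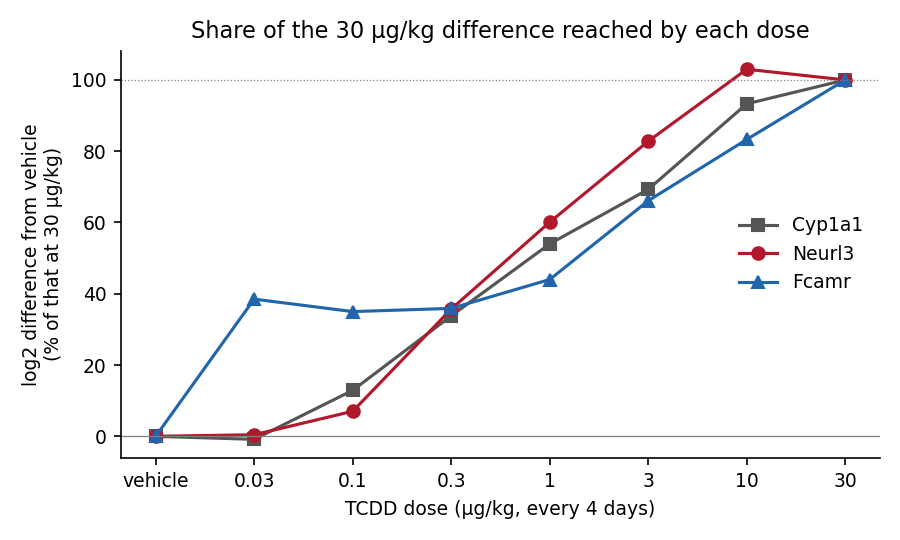
Share of the log2 difference from vehicle at 30 µg/kg (y axis, %) reached at each TCDD dose (x axis, µg/kg) by Neurl3, Fcamr and Cyp1a1; each point is the mean of 5 mice and the lines join doses. Neurl3 and Cyp1a1 both stand near 35% at 0.3 µg/kg, from 7.02% and 12.9% at 0.1 µg/kg, while Fcamr is near that share from the lowest dose on.

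The excess of Fcamr over Neurl3 closed over the dose range. Per kilobase of annotated exon (3217 bases for Neurl3 and 1911 for Fcamr, GENCODE M21), Fcamr was the more abundant transcript in vehicle kidneys, with a median ratio of Fcamr to Neurl3 of 7.74. The median ratio was 5.48 at 0.03 µg/kg, 5.72 at 0.1 µg/kg, 3.67 at 0.3 µg/kg, 2.57 at 1 µg/kg and 1.59 at 3 µg/kg. At 10 and 30 µg/kg the 2 transcripts were at near parity, with median ratios of 1.08 and 0.890. Counts behind these values lay between 87 and 864 per library for Neurl3 and between 247 and 798 for Fcamr, and both genes passed the filter on low counts.

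Numbers in the sample titles run through the dose groups once from 1 to 27 (23 libraries) and again from 28 to 53 (17 libraries), and the labels do not say what the number stands for. Within the first range, Neurl3 differed from vehicle by -0.14, -0.17, 0.71, 0.96, 1.45, 1.91 and 1.83 in order of dose (2 or 3 mice against 3). Within the second it differed by 0.23, 0.44, 0.68, 1.51, 1.88, 2.21 and 2.17 (2 or 3 mice against 2). Fcamr was below vehicle at each dose within both ranges, between -0.36 and -0.95 in the first and between -0.24 and -1.08 in the second. The flat start of Neurl3 is thus the mean of small differences of either sign, and its rise from 0.3 µg/kg and the fall of Fcamr were present in both.

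With the dose removed, the relation between the 2 genes had the opposite sign. Across all 40 libraries their log2 levels ran against each other (Pearson r = -0.66), as their choice for opposite trends makes them do. After the mean of each dose group was subtracted, mice with more Neurl3 than their group also had more Fcamr (Pearson r = 0.47, permutation p = 0.00565, Spearman rho = 0.49, permutation p = 0.00363, 40 libraries, two-sided, values exchanged within dose groups). Among the 17 within-dose relations computed, the Benjamini-Hochberg adjusted permutation p was 0.0690 for r and 0.0309 for rho, so the relation passed 0.05 by rank and missed it by r. It was positive in 8 of 8 dose groups, and r was 0.42 without the 2 libraries farthest from the median and 0.47 and 0.62 within the first and the second title-number range. Neurl3 deviations also followed the total gene counts of a library (r = 0.45), whereas those of Fcamr did not (r = 0.00), and the part of depth was not tested.

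**Figure D3:**
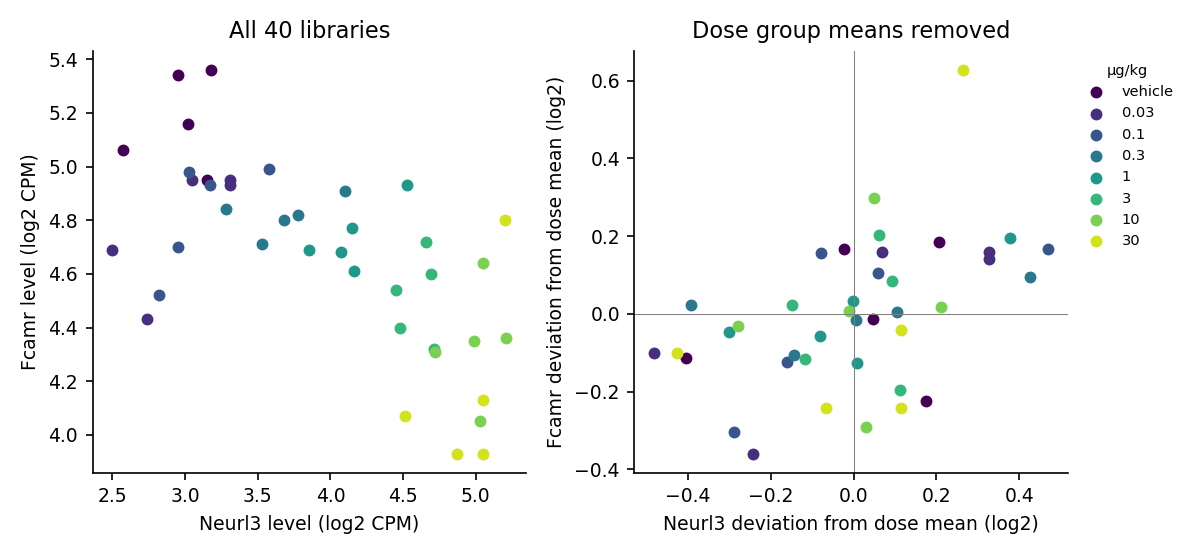
Fcamr against Neurl3 in log2 CPM for the 40 kidneys (left) and the same values after subtraction of each dose group's mean (right), with 1 point per mouse and colour by dose in µg/kg. The cloud falls from vehicle to 30 µg/kg on the left (r = -0.66) and tilts upwards on the right (r = 0.47), where 1 mouse of the 30 µg/kg group lies highest for Fcamr.

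Among mice of the same dose, neither gene followed Cyp1a1. The within-dose r was -0.04 for Neurl3 (permutation p = 0.831, adjusted p = 0.917, rho = -0.01 with permutation p = 0.942) and 0.02 for Fcamr (permutation p = 0.887, adjusted p = 0.917, rho = 0.03 with permutation p = 0.857), and each had the sign of its pooled value in 4 of 8 dose groups. Without the 2 libraries farthest from the median, r was -0.13 for Neurl3 and 0.03 for Fcamr. Within the title-number ranges the values had opposite signs, -0.27 and 0.30 for Neurl3 and -0.13 and 0.55 for Fcamr. Cyp1a1 itself varied most where it was lowest. Its SD was 52.8% of the mean in vehicle and 49.6% at 0.03 µg/kg, against 12.2% at 1 µg/kg and 9.36% at 10 µg/kg. Pooled values weigh such low groups most, so a relation among mice with raised Cyp1a1 was little covered.

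Fcamr deviations followed the mean log2 CPM of the proximal tubule S1-S2 markers (Pearson r = 0.52, permutation p = 0.00812, adjusted p = 0.0690, Spearman rho = 0.54, permutation p = 0.00188, adjusted p = 0.0309). Here too rank passed and r missed 0.05 after adjustment, and r was 0.68 without the 2 farthest libraries, where its adjusted p passed. The relation did not hold within both title-number ranges: r was 0.68 in the first and 0.02 in the second. The S3 markers went the other way without passing (r = -0.23, permutation p = 0.346, adjusted p = 0.837). Endothelial markers gave r = 0.32 (permutation p = 0.0309, adjusted p = 0.175), and immunoglobulin and B-lineage markers, a lineage known to carry Fcamr, gave r = 0.13 (permutation p = 0.455, adjusted p = 0.860).

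Neurl3 deviations showed no relation that passed adjustment with the mean log2 CPM of any marker list. The largest were with interferon response genes (r = 0.30, permutation p = 0.0625, adjusted p = 0.236), macrophage markers (r = 0.29, permutation p = 0.0694, adjusted p = 0.236, rho = 0.37 with adjusted p = 0.138) and NF-kB targets (r = 0.29, permutation p = 0.120, adjusted p = 0.340). Without the 2 farthest libraries these were 0.04, 0.34 and 0.19. Within the title-number ranges they were 0.47 and -0.01 for the interferon genes, 0.44 and 0.18 for the macrophage markers and 0.36 and 0.49 for the NF-kB targets.

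The summed CPM of some of these lists, a measure other than the mean log2 CPM used within doses, also differed between the dose groups. The 14 macrophage markers, none of them at 0 in either group, summed to 225 to 272 CPM in vehicle kidneys, and with 30 µg/kg to 368 to 688 CPM. Much of that rise was Cd74, at 114 ± 6.66 and 307 ± 104 CPM, whereas Csf1r stood at 60.0 ± 28.3 and 54.6 ± 15.8 CPM. The 24 interferon response genes summed to 243 to 267 CPM in vehicle, 547 to 754 at 10 µg/kg and 291 to 569 at 30 µg/kg, a lower range at the top dose, where Neurl3 was level. The vehicle range of the 12 endothelial markers was 775 to 914 CPM and that at the top dose 1039 to 1194. For 10 S3 tubule markers these ranges were 1941 to 4647 and 631 to 3296 CPM, with medians of 4041 CPM in vehicle, 4459 at 3 µg/kg, 3452 at 10 µg/kg and 1530 at 30 µg/kg. Vehicle and 30 µg/kg overlapped for the S1-S2 markers, at 15591 to 20530 and 12008 to 19629 CPM, and for 15 immunoglobulin and B-lineage markers, at 15.3 to 18.3 and 10.3 to 18.3 CPM, whose medians followed no order of dose. Of the immunoglobulin and B-lineage markers, Ighm was highest in vehicle at 6.09 ± 1.51 CPM, and the B-cell marker Ms4a1 stood at 0.311 ± 0.218 CPM. The part of any of these cell types in the Neurl3 and Fcamr levels was not tested.

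The genes whose levels were most like those of Neurl3 over the 40 libraries, out of 14197 compared, were Cyp1a1 (Pearson r = 0.95), Gbp2b (0.92), Tifab (0.90), Ctss (0.90) and Apol7c (0.90). All 5 were higher at 30 µg/kg than in vehicle, for example Ctss, a lysosomal protease of antigen-presenting cells, at 19.6 ± 2.33 against 7.92 ± 1.48 CPM. These r values share the dose groups and are a description. With the group means removed, the likest genes were others, namely 2310030G06Rik (0.68), Mapk10 (0.64), Lyn (0.61), Tspan18 (0.61) and Aars2 (0.60).

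For Fcamr the likest genes over all libraries were Lrrc3 (0.84), Fbxo40 (0.83), Gm15848 (0.83), B4galnt3 (0.82) and Pdzd3 (0.81), each lower at 30 µg/kg than in vehicle. Within dose groups they were B4galnt3 (0.77), Slc12a7 (0.74), Gm15848 (0.70), Ppm1h (0.69) and Il22ra1 (0.68), so that the glycosyltransferase gene B4galnt3 and Gm15848 were on both lists. Gm15848 is annotated as an antisense gene at the Fcamr locus. It shares 0 exonic bases with Fcamr, and it stood at 23.0 ± 3.44 CPM in vehicle kidneys, and at 13.9 ± 4.55 with the top dose. The annotated exons of both genes thus differ in position. The counts used ignore strand, so within an exon the reads of either strand cannot be told apart.

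The 3 protein-coding neighbours on each side, in RefSeq's order, were read for both genes. Next to Neurl3, Plekhb2 went against it and fell (log2 change -0.42, SE 0.10, edgeR adjusted p = 0.00182 at 30 µg/kg), and the other 5, Hs6st1, Uggt1, Arid5a, Kansl3 and Fer1l5, had adjusted p between 0.245 and 0.852. Arid5a, an RNA-binding protein gene, rose by trend over the doses (0.08 per dose step, SE 0.03, edgeR adjusted p = 0.0412). Next to Fcamr, Pfkfb2, Yod1, AA986860, Pigr and Fcmr had edgeR adjusted p between 0.172 and 0.911 at 30 µg/kg and between 0.0606 and 0.566 by trend, and Il24 had too few counts to be tested. Across all genes 15.9% were called at 30 µg/kg and 19.8% by trend.

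Pigr and Fcmr, the related receptor genes that lie beside Fcamr, are described by dose. Pigr, which carries IgA and IgM across epithelium, stood at 143 ± 49.9 CPM in vehicle and 144 ± 26.0 at 0.3 µg/kg. It stood at 246 ± 71.9 CPM at 1 µg/kg, 252 ± 106 at 3 µg/kg, 277 ± 133 at 10 µg/kg and 111 ± 33.1 at 30 µg/kg. Of these only the 10 µg/kg level passed the test (log2 change 0.95, SE 0.29, edgeR adjusted p = 0.0477), close to the threshold, at a dose where 3.82% of all genes were called higher. The trend of Pigr over all doses had an adjusted p of 0.140 (edgeR), and it passed in the fit without the 30 µg/kg group (adjusted p = 0.000762). Fcmr was barely detected, with at most 23 counts in a library, at 0.536 ± 0.109 CPM in vehicle and 0.181 ± 0.122 at 30 µg/kg (log2 change -1.52, SE 0.74, edgeR adjusted p = 0.172).

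Of the other Fc receptors, several of myeloid cells rose. Of 16 genes 11 were tested, and 5 were called higher and 0 lower at 30 µg/kg by edgeR at an adjusted p under 0.05, where 8.39% of all genes were called higher and 7.55% lower. At an unadjusted p under 0.05, 2 were lower (Fcmr and Fcgr2b), and DESeq2 also called 5 higher and 0 lower. The median log2 change of the list was 0.38 against 0.01 for all genes. Fcgr3, an activating IgG receptor, went from 2.71 ± 0.763 to 8.17 ± 2.24 CPM (log2 change 1.59, SE 0.24, edgeR adjusted p = 3.48e-06). Fcgr4 rose by 1.51 (adjusted p = 4.62e-05, edgeR) and was the only one called at 1 µg/kg, where 0.507% of all genes were called higher. Fcer1g, the signalling chain these receptors share, rose by 1.08 (adjusted p = 0.000708, edgeR). Macrophage markers moved alongside, with 11 of 14 called higher at 30 µg/kg and a sum of 368 to 688 CPM against 225 to 272 CPM in vehicle kidneys. Much of the rise in that sum was Cd74 (114 to 307 CPM), and Csf1r did not rise (60.0 to 54.6 CPM). The part of these markers in the Fc receptor values was not tested.

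The calls of the other 2 Fc receptor genes depended on single mice. Fcgr1 rose by 1.35 at 30 µg/kg (edgeR adjusted p = 0.0135), and its adjusted p was 0.0797 without replicate 2 of that group. Fcgrt, the neonatal Fc receptor that recycles IgG, went from 245 ± 13.7 to 319 ± 92.6 CPM (log2 change 0.38, edgeR adjusted p = 0.00841), and the call was lost without replicate 3 or replicate 4 of the 30 µg/kg group (highest adjusted p = 0.0879). By trend edgeR called 5 higher and 0 lower (1 at an unadjusted p under 0.05, Fcmr, and 1 by DESeq2), where 11.0% and 8.84% of all genes were: Fcgr1, Fcgr3, Fcgr4, Fcer1g and, at 0.07 per dose step (edgeR adjusted p = 0.0185), the cytosolic antibody receptor Trim21, whose adjusted p was 0.112 with the counts of 1 stranded column.

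Of the ligands that Fcamr binds, IgA transcripts were lower at the top dose. Igha, the constant region of IgA, stood at 2.27 ± 0.592 CPM in vehicle and 0.346 ± 0.270 at 30 µg/kg (log2 change -2.68, edgeR adjusted p = 0.000349). Ighm, that of IgM, stood at 6.09 ± 1.51 and 6.27 ± 1.75 CPM. Igha was a low transcript, with at most 111 counts in a library and 0.0678 to 0.792 CPM in the 30 µg/kg libraries. Of the 12 tested genes of the immunoglobulin and B-cell list, Igha was the only one called at 30 µg/kg, where 7.55% of all genes were called lower, so the list as a whole was near that share. By trend, where 8.84% of all genes were lower, 2 were lower, Igha and the light chain gene Igkc (edgeR adjusted p = 0.0486), and the latter call was lost in 25 of 40 fits that left out 1 library, with adjusted p up to 0.0977.

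The other neuralized genes were tested in the same fit. Neurl4, a scaffold with neuralized repeats, fell from 159 ± 12.4 to 123 ± 15.5 CPM at 30 µg/kg (log2 change -0.37, edgeR adjusted p = 0.00027). Neurl1a went from 0.751 ± 0.389 to 1.62 ± 0.796 CPM (log2 change 1.11, SE 0.40, edgeR adjusted p = 0.0486), and this call was lost in 6 of 10 fits that left out 1 mouse of the 2 groups, namely vehicle replicates 3, 4 or 5 and 30 µg/kg replicates 1, 4 or 5, with adjusted p up to 0.164. Neurl1b and Neurl2 had log2 changes of 0.09 and 0.65 (edgeR adjusted p = 0.709 and 0.528). Per kilobase of exon, Neurl3 itself was at 2.43 CPM in vehicle kidneys, and at 9.60 with the top dose.

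Of the Notch receptors and ligands that neuralized proteins are named for, Jag2, Notch1 and Notch4 rose at high doses. Of 19 tested genes of the neuralized and Notch list, which leaves out Neurl3, 5 were called higher and 2 lower at 30 µg/kg, against 8.39% and 7.55% of all genes, and the median log2 change was 0.09 against 0.01. The number lower is near the share over all genes. Jag2, a Notch ligand, went from 9.23 ± 1.80 to 18.8 ± 3.68 CPM (log2 change 1.03, SE 0.15, edgeR adjusted p = 2.15e-06). It was also the only one of the list that passed at 3 µg/kg, where 1.03% of all genes were called higher. Leaving out 1 library, between 0 and 2 genes of the list were called higher at that dose. Notch1 rose by 0.71 (edgeR adjusted p = 2.01e-05) and Notch4, the endothelial receptor, by 0.74 (adjusted p = 3.77e-05). Endothelial markers moved alongside, with 8 of 12 called higher at 30 µg/kg, and their part in the Notch values was not tested.

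The remaining Notch calls were less firm. Notch3 rose by 0.55 (edgeR adjusted p = 0.0153), and its call was lost in 3 of 10 fits that left out 1 mouse, without vehicle replicate 1, vehicle replicate 2 or 30 µg/kg replicate 5 (adjusted p up to 0.102). Notch2 fell by 0.28 on the log2 scale at 30 µg/kg (edgeR adjusted p = 0.0286), and lost its call in 5 of 10 such fits, without vehicle replicate 2, 4 or 5 or 30 µg/kg replicate 3 or 4. By trend over the doses, 4 of the 19 were called higher and 1 lower, against 11.0% and 8.84% of all genes. The E3 ligases Mib1 and Mib2, which act on Notch ligands as neuralized does, stood at 89.7 ± 6.94 and 55.4 ± 1.93 CPM in vehicle and at 92.2 ± 11.5 and 55.4 ± 7.49 CPM at 30 µg/kg.

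**Figure D4:**
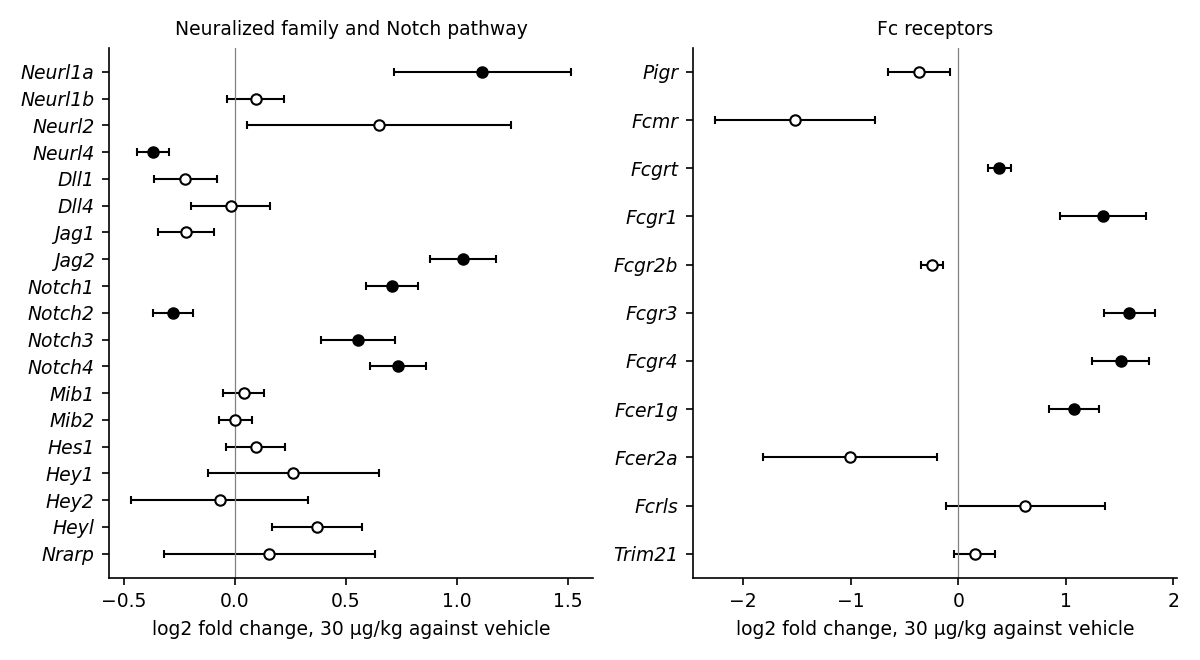
Log2 fold change at 30 µg/kg against vehicle (x axis) with its SE for the tested genes of the neuralized and Notch list (left, 19 genes) and of the Fc receptor list (right, 11 genes), n = 5 mice a group; filled points have an edgeR adjusted p under 0.05. Filled points lie on both sides of 0 on the left (5 higher, 2 lower) and on 1 side on the right (5 higher).

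The lists that stand for the settings in which Neurl3 and Fcamr are known were called as follows at 30 µg/kg, where 8.39% of all genes were called higher. Among targets of the dioxin receptor 6 of 7 were higher, with Cyp1b1 at 188 ± 13.4 against 23.1 ± 2.29 CPM. Among interferon response genes 21 of 24 were higher, among macrophage markers 11 of 14 and among NF-kB targets 5 of 12. In these 4 lists 0 were lower by edgeR, at an unadjusted p under 0.05 or by DESeq2. The genes of the lowest trend p in these lists were Ifit1 and Oasl2 (log2 changes 1.70 and 1.01), the complement genes C1qa and C1qb (33.2 ± 6.35 and 34.4 ± 4.32 CPM, in vehicle 11.8 ± 1.88 and 13.5 ± 1.88), and Birc3 and Vcam1 (0.74 and 0.68). In endothelium these were Emcn and Ptprb (0.74 and 0.63), and in podocytes, with 3 of 8 genes higher, 1 was Podxl (0.51).

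Tubule lists were read against the 8.39% of all genes called higher and the 7.55% called lower at 30 µg/kg. Of 12 proximal tubule S1-S2 genes, 2 were called higher and 3 lower at 30 µg/kg, the latter including the phosphate transporter Slc34a1 (7208 ± 705 to 4938 ± 1139 CPM) and the organic anion transporter Slc22a6 (1107 ± 82.6 to 630 ± 233 CPM). Of 10 S3 genes, 6 were lower, among them Aadat (log2 change -0.71) and Slc5a8 (-0.77). Of 14 distal nephron genes, 5 were lower, among them the calcium-binding proteins Calb1 (-0.53) and Pvalb (-1.45). All the calls named here, those of S3 included, held in every fit that left out 1 library. When only the 10 libraries of the 2 groups entered the fit, the S3 calls were lost, and the S1-S2 and distal calls named here were kept.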

How the data were processed

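The authors deposited, per the labels, a count file for each of 40 libraries, as STAR writes them, unnormalized whole numbers with an unstranded and 2 stranded columns. The submitters' processing notes name STAR 2.7.3a, FastQC 0.11.7, Trimmomatic 0.39 and DESeq2, and both GRCm39 and mm10, without saying which build the counts use. A deposited table of log2-like values, whose transformation is not given in the sources used here, was used only as an alternative. The unstranded counts were used, since the stranded columns held nearly equal shares. Lines that name no gene (unmapped 1.41 to 2.66%, multimapping 6.98 to 9.70%, no feature 5.28 to 7.27%, ambiguous 5.40 to 5.98% of reads per library) were left out. Names came from GENCODE M21 (52083 of 55359 IDs matched) and promoter sequences from RefSeq's GRCm38.p6 table (both genes matched).

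CPM are counts scaled to library size after TMM normalization (factors 0.966 to 1.09), on the log2 scale with a prior count of 2. Tests were edgeR 4.0.16 (R 4.3.3) quasi-likelihood F-tests in 1 fit of all 8 groups, with filterByExpr, on 17345 genes, each dose against vehicle and a trend over dose rank, with Benjamini-Hochberg adjustment over all genes and calls at 0.05. On simulated 2-fold changes (log2 1) at 30 µg/kg the fit recovered 99% of 200 genes, of 16478 tested, with 5.26% false calls among its calls. The changed genes were drawn only from those with higher counts, and all genes were simulated with the same dispersion. The recovered share therefore does not cover genes of low counts, such as Fcmr and Neurl1a, or groups as uneven as vehicle and 30 µg/kg. No 2 replicates agreed within sampling noise (chi-square per degree of freedom 6.90 to 78.8 in 80 pairs). Within-dose relations used deviations of log2 CPM from dose group means and 100000 permutations within dose groups (two-sided). A gene list entered them as the mean log2 CPM of its tested genes. p-values measure the spread between mice of a group.

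The members and the gene lists were chosen with earlier results of these data known, so no list is independent evidence. Named genes were both members, Cyp1a1, every called gene of the neuralized and Notch and Fc receptor lists, the other Neurl genes, Pigr, Fcmr, the 2 genes of lowest trend p in every other list (1 of them is not reported here), the 5 most like genes and the 3 neighbours on each side. Other genes named for background values (Umod, Ms4a1, Ighm, Cd74, Csf1r, Mib1 and Mib2) were chosen after their values were seen. Alternatives were DESeq2 1.42.0 and its size factors, the second stranded column, no filter on low counts, a term for the title-number range, the 2 groups alone, no 30 µg/kg group, another prior count, and leaving out each library. The vehicle group without replicates 1 and 2 was added after the data were seen.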

Additional observations from a re-analysis of the deposited data

Results flagged for a closer look

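Single mice stood apart from the other 4 of their group, by a gap of more than 0.71 of the group's range, in 4 of 96 groups examined, and chance alone gives about 1 in 20. Fcamr of replicate 2 at 30 µg/kg was at 27.8 CPM, with the next mouse at 17.5 CPM. Cyp1a1 of replicate 4 at 0.03 µg/kg was at 4.02 CPM, with the next at 2.04 CPM, and Cyp1a1 of replicate 1 at 10 µg/kg was lowest at 1309 CPM, with the next at 1595 CPM. Pigr of vehicle replicate 5 was at 230 CPM, with the next at 135 CPM.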

How the results depend on the processing

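Of the 84 Neurl3 and Fcamr differences recomputed under other settings, 72 kept their sign and stayed within the replicate SD. With the second stranded column, which holds about as many reads as the first, Neurl3 differed by -0.17 at 0.03 µg/kg and 0.88 at 1 µg/kg. In the first title-number range it differed by -0.14 at 0.03 and -0.17 at 0.1 µg/kg, and in the second by 0.44, 1.51 and 1.88 at 0.1, 1 and 3 µg/kg. On the scale of the authors' deposited transformed values, Neurl3 differed by 0.70, 1.01, 1.31 and 1.26 at 1, 3, 10 and 30 µg/kg and Fcamr by -0.62 at 10 µg/kg. Leaving out 1 library moved Neurl3 at 0.03 µg/kg between -0.09 and 0.13. Without vehicle replicates 1 and 2 every sign was kept. The cause of these shifts was not tested.

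List counts moved most when only the 10 libraries of the 2 groups entered the fit: at 30 µg/kg the neuralized and Notch list then had 3 higher and 1 lower, Fc receptors 3 higher, S1-S2 0 higher, S3 0 lower and the distal nephron 2 lower, and Fcgr1, Fcgrt, Neurl1a, Notch2 and Notch3 were not called. The second stranded column gave 1 lower in the neuralized and Notch list, and the title-number term 1 lower in Fc receptors. By trend without the 30 µg/kg group, the numbers lower were 0 in the neuralized and Notch list, 1 in immunoglobulins, 1 in S1-S2 and 0 in S3, with 0 higher in S1-S2, and the trends of Fcgrt, Neurl2 and Notch2 were -0.00, -0.11 and 0.00. DESeq2 gave 1 Fc receptor lower and 1 immunoglobulin gene higher by trend, and immunoglobulins had 1 lower with the second stranded column and with no filter. Leaving out 1 library, the counts at 30 µg/kg were 3 to 5 higher and 1 to 2 lower in the neuralized and Notch list, 0 to 1 lower in Fc receptors, 1 to 3 higher in S1-S2, 0 to 1 higher and 3 to 6 lower in the distal nephron, and 3 to 5 higher in podocytes. By trend they were 1 to 2 lower in the neuralized and Notch list, 0 to 1 lower in Fc receptors, 0 to 1 higher and 1 to 2 lower in immunoglobulins, 0 to 4 higher in S1-S2 and 1 to 5 lower in S3. Neurl1b moved between -0.04 and 0.22 at 30 µg/kg and between -0.01 and 0.01 by trend, and Neurl2 by trend between -0.02 and 0.04. Of 61 calls of named genes, 48 held in every fit and 13 were lost in at least 1.

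Within-dose r kept its sign for Neurl3 with Fcamr (0.44 to 0.52 leaving out 1 library) and for Fcamr with S1-S2 markers (0.36 to 0.64, and 0.68 without the 2 farthest libraries, where its adjusted p passed). Values near 0 changed sign: with the second stranded column Neurl3 with Cyp1a1 (0.07) and with immunoglobulins (-0.20), Fcamr with interferon genes (0.03) and with immunoglobulins (-0.01). Without the 2 farthest libraries Neurl3 with endothelium gave -0.02, with S1-S2 0.16 and with S3 -0.05, and with means of dose and title-number range removed Fcamr with macrophages gave -0.01. Leaving out 1 library, Neurl3 gave -0.18 to 0.09 with Cyp1a1, -0.14 to 0.14 with S1-S2, -0.14 to 0.19 with S3 and -0.02 to 0.17 with immunoglobulins, and Fcamr -0.08 to 0.13 with Cyp1a1, -0.35 to -0.00 with interferon genes and -0.19 to 0.16 with macrophages. No paired analysis was possible because the labels give no replicate numbers that tie mice of different groups.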
